A study of Homo sapiens with 8 samples.

Results

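The mRNAs of 10 genes that import, store, release or export iron, or that set how readily membrane lipids are peroxidised, were examined in HuH7 cells, a human hepatoma-derived line, given ginsenoside Rk2 after oxygen-glucose deprivation. The genes were TFRC, SLC39A14, FTH1, FTL, NCOA4, SLC40A1, HAMP, ACSL4, GPX4 and AIFM2, chosen by name with earlier results of these data known. All 10 were found among the 15767 genes of the count table and among the 12928 with enough counts to be tested. Wildtype HuH7 cells in all 8 libraries had spent 6 h in glucose-free DMEM at 1% oxygen before they were returned to normoxia. In the 4 libraries of I/R+DMSO the medium of the following 6 h held DMSO, and in the 4 of I/R+Rk2 it held 20 µM ginsenoside Rk2 in DMSO. Cells without oxygen-glucose deprivation were not analysed here, so every comparison is of Rk2 with its vehicle after the same insult.

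Hepatocytes take up transferrin-bound iron through the transferrin receptor TFRC and free iron through the zinc and iron importer SLC39A14. Iron that is not used is kept in ferritin, a shell of heavy (FTH1) and light (FTL) chains that NCOA4 carries to lysosomes for breakdown, and it leaves the cell through ferroportin, SLC40A1, which the liver hormone hepcidin (HAMP) removes from the membrane. Iron also drives the peroxidation of polyunsaturated phospholipids that ends in ferroptosis. ACSL4 activates the fatty acids that make membranes sensitive to it, while GPX4 reduces the lipid peroxides and AIFM2 (FSP1) regenerates coenzyme Q as a second line of defence.

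Several of these mRNAs are controlled after transcription by iron regulatory proteins, which bind hairpins called iron-responsive elements when iron is scarce. Binding at the 5′ end blocks translation, and binding at the 3′ end protects the mRNA from decay. The sequences of the hairpins found in untranslated regions of the 10 genes are shown, and matches in coding sequence are not. They tell apart the mRNAs whose level can follow iron from those whose translation does. In GENCODE v29 transcripts on hg38, a C, 5 stem bases, the loop CAGTGN with N as A, C or T, and 5 stem bases that pair in full were searched on the transcript strand. A match of these 17 bases in an untranslated region occurred in 4 of the 10 genes, and in 130 of 19702 protein-coding genes (0.66%). The capitals mark the loop, and the sequences run 5′ to 3′ as DNA.
TFRC, 3′ UTR, chr3:196050985-196051001, minus strand: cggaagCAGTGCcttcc
TFRC, 3′ UTR, chr3:196050581-196050597, minus strand: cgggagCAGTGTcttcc
TFRC, 3′ UTR, chr3:196050516-196050532, minus strand: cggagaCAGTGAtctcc
TFRC, 3′ UTR, chr3:196050469-196050485, minus strand: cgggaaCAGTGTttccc
FTH1, 5′ UTR, chr11:61967580-61967596, minus strand: cttcaaCAGTGCttgga
FTL, 5′ UTR, chr19:48965341-48965357, plus strand: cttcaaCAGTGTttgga
SLC40A1, 5′ UTR, chr2:189580667-189580683, minus strand: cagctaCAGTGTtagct
TFRC held 4 such hairpins, all in its 3′ untranslated region, and FTH1, FTL and SLC40A1 held 1 each near their 5′ ends. FTH1 and FTL had the same stem and differed in the last base of the loop. A match is a description of the letters and not a measurement of binding.

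Library totals ranged from 16374082 to 30310479 counts. All 9 hepatocyte markers examined were above 1 FPKM (fragments scaled to gene length and library size), and their summed level was 4639 to 5130 FPKM in the I/R+DMSO libraries and 4980 to 5123 in those of I/R+Rk2. Of the 6 leukocyte markers LYZ (323 to 377 FPKM) and CD68 exceeded 1 FPKM, PTPRC was listed at 0, and the summed level was 360 to 401 FPKM in the I/R+DMSO libraries and 353 to 405 in those of I/R+Rk2. Of 4 endothelial markers 3 were listed at 0, and the stromal markers summed to between 5.12 and 6.79 FPKM over all libraries. Across the tested genes (genes are not replicates), the log2 fold change of Rk2 over DMSO (log2FC) correlated with gene length (Spearman's rho = 0.388) and, inversely, with GC content (rho = -0.322). For the 10 genes, values are therefore also given after a correction for each. I/R+DMSO replicate 1 stood apart from its group in several of the 10 genes, and values without it are given beside them. The labels do not say whether the libraries of a group came from separate cultures, so the p-values measure the spread between these libraries.

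Levels between genes are compared in FPKM, which accounts for gene length. Averaged over the 8 libraries, FTL was at 5234 FPKM and ranked 8 of 19799 genes, and FTH1 was at 2070 FPKM and ranked 18. GPX4 (280 FPKM), TFRC (176 FPKM) and SLC39A14 (157 FPKM) followed, then NCOA4 (49.8 FPKM), ACSL4 (31.8 FPKM), AIFM2 (25.1 FPKM) and SLC40A1 (16.0 FPKM). HAMP was at 0.302 FPKM. In this order the libraries of SLC39A14 (111 to 189 FPKM) overlapped those of TFRC (148 to 195 FPKM), and those of ACSL4 (20.8 to 44.9 FPKM) overlapped those of NCOA4 (43.2 to 56.7 FPKM) above it and of AIFM2 (24.4 to 26.5 FPKM) below it. The ranges of all other neighbours did not overlap. Within each of the 8 libraries TFRC was above SLC39A14, and NCOA4 was above ACSL4. At the mRNA level both importers were far above the exporter SLC40A1 (14.8 to 17.8 FPKM), and hepcidin was barely detected.

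**Figure D1:**
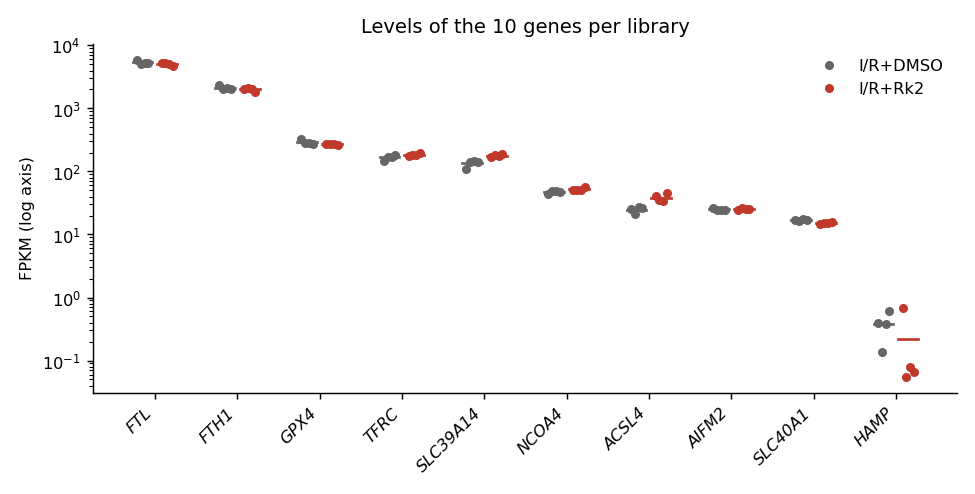
FPKM of each of the 10 genes (log axis) in the 4 I/R+DMSO libraries (grey) and the 4 I/R+Rk2 libraries (red), ordered by mean level, with bars at the group means. FTL and FTH1 lie at or above 1849 FPKM in every library and HAMP below 1 FPKM.

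The question of the comparison is which of these mRNAs differ between Rk2 and DMSO. Of the 10 genes, 3 passed a threshold of 0.05 on the adjusted p-value in edgeR's quasi-likelihood test with Benjamini-Hochberg adjustment over all tested genes, against 18.2% of all tested genes. SLC39A14 and ACSL4 rose (2 of 10, against 11.0% of all genes) and SLC40A1 fell (1 of 10, against 7.23%). The same 3 genes were those whose groups did not overlap, against 28.2% of all genes. With 10 genes these shares are near the background, and no count over the 10 is read as a result. None of the 3 changes reached 1.5-fold in edgeR, a size that 3.04% of all genes passed together with the test (2.46% higher and 0.580% lower), and ACSL4 alone exceeded it in limma on FPKM. The median log2FC of the 10 was -0.07, beside -0.0021 over all tested genes. The other 7 genes did not pass the test, and each is given with its interval. In bulk RNA a lower level in every cell and fewer cells with the mRNA cannot be told apart.

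**Figure D2:**
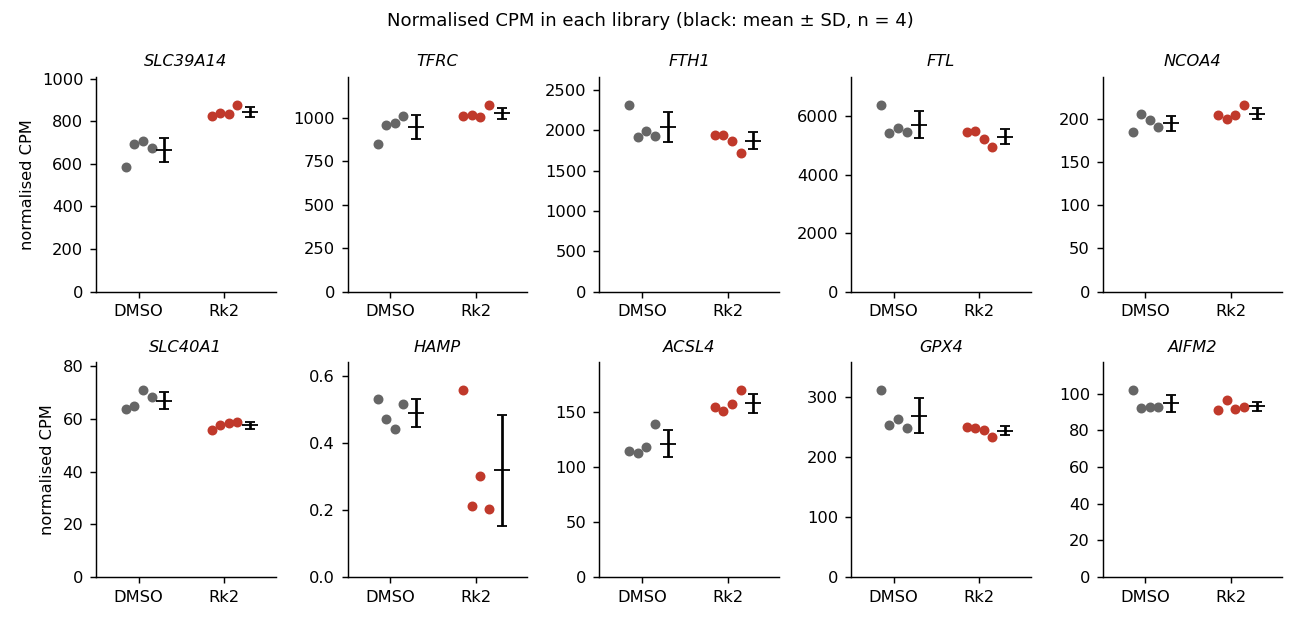
TMM-normalised CPM of the 10 genes in each library of I/R+DMSO (grey) and I/R+Rk2 (red), with mean and SD (n = 4) in black and axes from 0. The groups are separate in SLC39A14, ACSL4 and SLC40A1 and overlap in the other 7 genes.

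Among the importers, SLC39A14 (ENSG00000104635, hg38 chr8:22367249-22434129, plus strand) was at 585, 695, 708 and 673 CPM (counts scaled to the TMM-normalised library size) in I/R+DMSO replicates 1 to 4 and at 824, 837, 832 and 875 in I/R+Rk2. Every I/R+Rk2 library was above every I/R+DMSO library, and the lowest library was I/R+DMSO replicate 1. The means were 665 ± 55.2 and 842 ± 22.7 CPM (SD, n = 4 per group), a log2FC of 0.34 (standard error 0.0613, adjusted p = 0.00876 from edgeR), or 26.6% more with a 95% interval of 14.8% to 39.5%. SLC39A14 passed the test in all 13 alternative fits and in all 8 fits that each left out a library. Without I/R+DMSO replicate 1 its log2FC was 0.28. It was 0.23 after the gene length correction, 0.38 after the GC correction and 0.41 in limma on log2(FPKM + 1). TFRC (ENSG00000072274, chr3:196027183-196082189, minus strand), the gene with hairpins at its 3′ end, was at 847, 959, 968 and 1009 CPM in I/R+DMSO and at 1011, 1014, 1003 and 1073 in I/R+Rk2. The groups met at 1 library, since I/R+DMSO replicate 4 lay above I/R+Rk2 replicate 3. The difference was 8.38% with a 95% interval of -0.96% to 18.6% (log2FC 0.12, adjusted p = 0.188 from edgeR). It was 0.07 on the log2 scale without I/R+DMSO replicate 1, and it turned to -0.03 after the gene length correction and to -0.0074 after the GC correction.

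The ferritin chains together took 0.730% to 0.850% of all counts in the I/R+DMSO libraries and 0.677% to 0.752% in I/R+Rk2. FTH1 (ENSG00000167996, chr11:61959718-61967660, minus strand) was at 2315, 1920, 1998 and 1926 CPM in I/R+DMSO and at 1949, 1943, 1869 and 1721 in I/R+Rk2. The groups overlapped, with I/R+DMSO replicate 1 highest and I/R+Rk2 replicate 4 lowest. The difference was -8.3% with a 95% interval of -18.0% to 2.6% (log2FC -0.13, adjusted p = 0.251 from edgeR). FTL (ENSG00000087086, chr19:48965301-48966878, plus strand) was at 5410 to 6372 CPM in the I/R+DMSO libraries and 4951 to 5500 in those of I/R+Rk2, a log2FC of -0.11 (95% interval -0.25 to 0.03, adjusted p = 0.250 from edgeR). Without I/R+DMSO replicate 1 the log2FC values were -0.06 for FTH1 and -0.05 for FTL. After the gene length correction, which turned their direction, they were 0.03 for FTH1 (standard error 0.0296) and 0.03 for FTL (standard error 0.0254). After the GC correction they stayed negative, at -0.09 for FTH1 and -0.07 for FTL. The chains kept their proportion, with an FTH1 level of 0.385 to 0.403 of that of FTL in FPKM over all 8 libraries. GENCODE v29 lists 25 numbered pseudogenes of FTH1 and 16 of FTL, and the count table has no row for any of them, so reads that match both a ferritin gene and a copy make these values uncertain. The exons of BEST1, at 6 to 26 counts, overlap FTH1 on the opposite strand.

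NCOA4 (ENSG00000266412, chr10:46005088-46030714, minus strand), the cargo receptor that delivers ferritin for breakdown, was at 185 to 206 CPM in the I/R+DMSO libraries and 201 to 216 in those of I/R+Rk2. The groups overlapped, and the difference was 5.81% with a 95% interval of -1.42% to 13.6% (log2FC 0.08, adjusted p = 0.235 from edgeR). In FPKM the groups did not overlap (43.2 to 49.4 against 50.2 to 56.7), and limma on log2(FPKM + 1) gave a log2FC of 0.14 (adjusted p = 0.217). In edgeR the log2FC was -0.0035 after the gene length correction and 0.0071 after the GC correction. Numbered pseudogenes of NCOA4, 3 in GENCODE v29, are also outside the count table.

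SLC40A1 (ENSG00000138449, chr2:189560579-189583758, minus strand), the iron exporter, was at 63.9, 64.9, 70.8 and 68.2 CPM in I/R+DMSO and at 55.6, 57.6, 58.2 and 58.8 in I/R+Rk2. Every I/R+Rk2 library was below every I/R+DMSO library, with I/R+DMSO replicate 1 nearest to the I/R+Rk2 libraries. The mean went from 66.9 ± 3.16 to 57.5 ± 1.37 CPM (SD, n = 4 per group), a log2FC of -0.22 (standard error 0.0475, adjusted p = 0.0178 from edgeR). In percent the difference was -14.0% with a 95% interval of -20.3% to -7.27%. The gene length correction took the log2FC to -0.30 (adjusted p = 0.00405 from edgeR). After the GC correction the log2FC was -0.22. The call was lost in limma on FPKM, with adjusted p-values between 0.111 and 0.117 in the 3 fits and a log2FC of -0.15 on log2(FPKM + 1), although the groups did not overlap in FPKM either (16.1 to 17.8 against 14.8 to 15.6). Without I/R+Rk2 replicate 2 the adjusted p was 0.0502 in edgeR at a log2FC of -0.22.

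HAMP (ENSG00000105697, chr19:35280716-35285143, plus strand), which encodes hepcidin, had 10, 10, 8 and 11 counts in I/R+DMSO and 17, 4, 5 and 4 in I/R+Rk2. It passed the filter of 10 counts in 4 libraries exactly. The groups overlapped through I/R+Rk2 replicate 1, the most deeply sequenced library, at 0.556 CPM beside 0.202 to 0.302 in the other 3. The log2FC was -0.54 with a 95% interval of -1.38 to 0.29 (adjusted p = 0.332 from edgeR), and the two-sided exact permutation p was 0.143, where 4 against 4 libraries allow 0.0286 at the lowest. After the gene length correction the log2FC was -0.43, and after the GC correction -0.50. A change of hepcidin mRNA was not detectable at this depth. Its FPKM and counts disagreed from library to library, with counts per FPKM between 0.352 and 1.70 of their mean, so no FPKM fold is given.

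Of the genes of lipid peroxidation, ACSL4 (ENSG00000068366, chrX:109624244-109733403, minus strand), the acyl-CoA synthetase that loads membranes with polyunsaturated fatty acids, was at 115, 112, 118 and 139 CPM in I/R+DMSO and at 154, 150, 157 and 169 in I/R+Rk2. The groups did not overlap, with I/R+DMSO replicate 4 nearest to I/R+Rk2. The mean rose from 121 ± 12.3 to 158 ± 8.29 CPM (SD, n = 4 per group), a log2FC of 0.38 (standard error 0.0748, adjusted p = 0.0120 from edgeR), or 30.3% more with a 95% interval of 15.7% to 46.7%. ACSL4 passed in all 13 alternative fits and all 8 fits without a library, but its size depended on the scale. The log2FC was 0.24 after the GC correction, 0.29 after the length correction and 0.61 in limma on log2(FPKM + 1), where FPKM was 20.8 to 26.9 in the I/R+DMSO libraries and 33.6 to 44.9 in those of I/R+Rk2. Counts per FPKM of ACSL4 had a coefficient of variation of 13.2% over the 8 libraries, against 0.379% to 3.01% for the 8 genes other than ACSL4 and HAMP. Relative to their mean they were 0.962, 1.20, 0.969 and 1.17 in I/R+DMSO and 0.839, 0.955, 1.05 and 0.854 in I/R+Rk2. The counts and the FPKM of ACSL4 thus did not keep one ratio over the libraries. Exons of KCNE5, at 8 to 31 counts, overlap ACSL4 on the same strand.

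The promoter of ACSL4 is shown because ACSL4 was called higher in edgeR and in all 13 alternative fits. In RefSeq's promoters on GRCh38.p14 (250 bases before to 50 after the start), 8 of the 10 genes had an entry, without FTH1 and SLC39A14. A single entry was used for each gene, so other starts were not searched. Both strands were searched for the antioxidant response element TGACNNNGC, the amino acid response element TGATGNAA, the hypoxia response element ACGTG and the cAMP response element TGACGT. The last shares letters with ACGTG, but none of the 8 promoters held both. The 250 bases before the RefSeq start of ACSL4, chrX:109733258-109733507 on the minus strand, hold TGACGT (in capitals), which 7.98% of all 35116 promoters hold. The span of ACSL4 in GENCODE v29 begins within these bases, at 109733403, and the motif lies upstream of that point.
ACSL4: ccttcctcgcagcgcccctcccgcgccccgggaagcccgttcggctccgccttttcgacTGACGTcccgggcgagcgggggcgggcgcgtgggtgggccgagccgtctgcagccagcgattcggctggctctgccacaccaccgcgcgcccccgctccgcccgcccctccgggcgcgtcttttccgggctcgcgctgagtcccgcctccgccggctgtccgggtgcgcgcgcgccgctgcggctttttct
The antioxidant element occurred in AIFM2 and NCOA4 (13.3% of all promoters), and ACGTG in TFRC and FTL (21.4%). The amino acid element, in 3.62% of all promoters, had no match in the 8, and SLC40A1, HAMP and GPX4 held none of the 4 motifs. In AIFM2 the element lies within the 30 bases before the RefSeq start, chr10:70132826-70132855 on the minus strand, and is read on the opposite strand (capitals). These bases are inside the span of AIFM2 in GENCODE v29, which begins further upstream.
AIFM2: gcacgagtGCTGAGTCAcgccccgcccggg
These matches are descriptions of the letters in a short window.

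GPX4 (ENSG00000167468, chr19:1103926-1106791, plus strand), the selenoenzyme that reduces phospholipid peroxides, was at 311, 253, 263 and 248 CPM in I/R+DMSO and at 249, 248, 244 and 232 in I/R+Rk2. I/R+DMSO replicate 1 was highest, and the groups overlapped at I/R+DMSO replicate 4. The log2FC was -0.14 with a 95% interval of -0.31 to 0.02 (adjusted p = 0.206 from edgeR). It was -0.06 without I/R+DMSO replicate 1 and turned to 0.02 after the gene length correction (standard error 0.0310). After the GC correction it stayed negative, at -0.06. AIFM2 (ENSG00000042286, chr10:70098223-70132934, minus strand), the oxidoreductase that keeps coenzyme Q reduced, was at 102, 92.1, 92.6 and 92.7 CPM in I/R+DMSO and at 91.3, 96.6, 91.8 and 92.6 in I/R+Rk2. Apart from I/R+DMSO replicate 1 and I/R+Rk2 replicate 2, all its libraries lay between 91.3 and 92.7 CPM. The difference was -1.82% with a 95% interval of -8.73% to 5.61% (adjusted p = 0.726 from edgeR). The log2FC was -0.10 after the gene length correction and 0.0038 after the GC correction. Its sign turned in fits with library size only, FPKM or the GC correction and without I/R+DMSO replicate 1. H2AFY2, at 296 to 573 counts, overlaps AIFM2 on the opposite strand, and whether the counting used strand is not given in the sources used here.

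**Figure D3:**
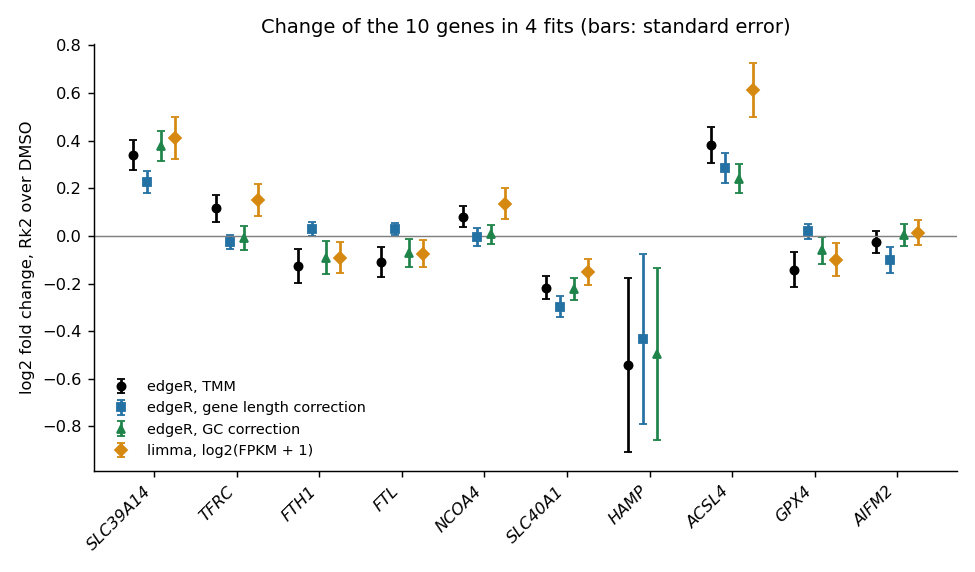
Log2FC of the 10 genes (Rk2 over DMSO, bars are standard errors) in edgeR on TMM-normalised counts, in edgeR after a gene length or GC correction, and in limma on log2(FPKM + 1), which could not be fitted for HAMP under the FPKM minimum. SLC39A14 and ACSL4 lie above 0 and SLC40A1 below 0 in all 4, while TFRC, the ferritin chains, NCOA4, GPX4 and AIFM2 cross 0 between fits.

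The surrounding pathways were described with 9 lists of known genes, 174 different genes without the 10. The lists were chosen with earlier results of these data known, so their shares beside that of all genes are descriptions. Of the 156 with enough counts, edgeR called 21 higher and 15 lower after adjustment, or 23.1% beside 18.2% of all tested genes, with a median log2FC of -0.02. Among 10 other iron uptake genes, edgeR called 0, with 1 at an unadjusted p below 0.05, and DESeq2, limma on log2(FPKM + 1) and voom each called 0 as well. Among 7 other storage and export genes CP, the ferroxidase ceruloplasmin that works with ferroportin, was the gene called, from 43.3 ± 5.21 to 56.2 ± 1.58 CPM (SD, n = 4 per group), a log2FC of 0.37 (adjusted p = 0.0198 from edgeR). CP rose while its partner SLC40A1 fell. Its call was lost after the GC correction (0.20 on the log2 scale, adjusted p = 0.118), in limma on log2(FPKM + 1) without a filter (0.37, adjusted p = 0.0573), and without I/R+DMSO replicate 2 (adjusted p = 0.0521 at 0.34), I/R+Rk2 replicate 3 (0.0526 at 0.36) or I/R+Rk2 replicate 4 (0.0574 at 0.36).

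Of 25 other genes of hepcidin control, 1 rose and 3 fell (16.0%, beside 18.2% of all genes). ID1, a direct target of bone morphogenetic protein (BMP) signaling, which drives hepcidin transcription, fell from 599 ± 38.0 to 441 ± 10.7 CPM (SD, n = 4 per group), a log2FC of -0.44 (adjusted p = 0.00134 from edgeR). SMAD6, an inhibitory SMAD that BMP signaling induces, had a log2FC of -0.52 (adjusted p = 0.00675 from edgeR), and both kept their calls in every fit. BMP6, an iron-responsive ligand named after its values were seen, had means of 7.63 and 5.98 CPM and a log2FC of -0.35 (adjusted p = 0.0295 from edgeR). BMP6 kept its call in 1 of the 8 fits without a library, that without I/R+DMSO replicate 4, and its adjusted p was 0.0535 to 0.0725 in the other 7. BMP2, another BMP ligand of the list, had means of 218 and 226 CPM and was not called (log2FC 0.05, adjusted p = 0.356 from edgeR). A positive log2FC was found in 12 of the 25 genes. IL6ST, the shared signal-transducing receptor of the interleukin-6 family, rose by a log2FC of 0.63 (adjusted p = 0.00190 from edgeR). Of 9 other genes of the iron regulatory system, CDC42BPA had a log2FC of 0.40 (adjusted p = 0.00921 from edgeR). It is a kinase whose mRNA is known for an iron-responsive element, although the search for full pairing above did not match it. The log2FC of CDC42BPA was 0.14 after the gene length correction (adjusted p = 0.137) and 0.20 in limma on log2(FPKM + 1) (adjusted p = 0.403). CUL1, a scaffold of the ubiquitin ligase that degrades IRP2, had -0.14 (adjusted p = 0.0479 from edgeR). CUL1 stayed below 0.05 in 1 of the 8 fits without a library, the fit without I/R+DMSO replicate 3. Its adjusted p lay between 0.0612 (without I/R+Rk2 replicate 1) and 0.112 (without I/R+Rk2 replicate 4) in the other 7, with log2FC values between -0.16 and -0.13.

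Heme and iron-sulfur cluster genes, 31 tested, had 2 called higher and 5 lower (22.6%, beside 18.2% of all genes), with a median log2FC of -0.11. HMOX1, which releases iron from heme, rose from 134 ± 12.3 to 187 ± 7.20 CPM (SD, n = 4 per group), a log2FC of 0.48 (adjusted p = 0.00351 from edgeR) that lay between 0.45 and 0.54 in all 13 alternative fits. FLVCR1, known as a heme exporter, had 0.39 (adjusted p = 0.0132), and CPOX, an enzyme of heme synthesis, had -0.46 (adjusted p = 0.0146, both edgeR). Both calls were lost in some alternative fits, with adjusted p-values of up to 0.0547 for FLVCR1 and 0.0702 for CPOX. The genes called lower also included ALAD (-0.18) of heme synthesis and FDX2 (-0.32) and FDXR (-0.48), which pass electrons for cluster assembly, all named after their values were seen. Their adjusted p-values were 0.0479 to 0.0481 in edgeR. ALAD, FDX2 and FDXR each kept the call in 1 of the 8 fits without a library, those without I/R+DMSO replicates 1, 4 and 3 in this order, and their adjusted p reached 0.0971 to 0.115 in the others.

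Among 24 other genes listed as ferroptosis guards, 7 were higher and 2 lower, 37.5% beside 18.2% of all genes. The 7 include an enzyme of cholesterol synthesis that uses up a sterol protective against ferroptosis, so the list does not hold guards alone. SLC7A11, the importer of cystine for glutathione, the substrate of GPX4, rose from 70.6 ± 6.80 to 172 ± 8.68 CPM (SD, n = 4 per group), a log2FC of 1.28 (standard error 0.0730, adjusted p = 6.7e-05 from edgeR). GPX4 itself was not called (-0.14, adjusted p = 0.206 from edgeR, and 0.02 after the gene length correction). SLC3A2, the partner chain of SLC7A11, rose by 0.57 on the log2 scale (adjusted p = 0.00107) and GCLM, the modifier subunit of the enzyme that begins glutathione synthesis, by 0.34 (adjusted p = 0.00105, both edgeR). The call of SLC3A2 was lost in limma on FPKM (adjusted p up to 0.134). Those of SLC7A11 and GCLM held in all alternative fits, where the log2FC of GCLM ran from 0.17 to 0.37. The 2 genes called lower were SPR, of tetrahydrobiopterin synthesis, at -0.26 (adjusted p = 0.0225) and DHODH, a mitochondrial guard that works beside GPX4, at -0.50 (adjusted p = 0.0432, both edgeR and named after their values were seen). GCH1, the first enzyme of the same synthesis as SPR and also named after its values were seen, was called higher at 0.15 (adjusted p = 0.0299 from edgeR). GCH1 kept the call without I/R+DMSO replicates 1 or 4, and its adjusted p was 0.0560 to 0.0814 in the other 6 fits without a library and 0.215 after the GC correction. SPR lost its call without I/R+Rk2 replicate 3 (adjusted p = 0.0568) or 4 (0.0572), and DHODH kept it in 1 of the 8 fits without a library, that without I/R+DMSO replicate 4 (0.0502 to 0.0984 in the other 7). Of 11 coenzyme Q synthesis genes, which supply the substrate of AIFM2, COQ3 was called (9.09%, beside 18.2% of all genes), at -0.26 (adjusted p = 0.0165 from edgeR). A positive log2FC was found in 2 of the 11, and in 6419 of all 12928 tested genes. The call of COQ3 was lost in 5 of the 13 alternative fits. These include the gene length correction (-0.16, adjusted p = 0.102 from edgeR) and limma on log2(FPKM + 1) (-0.20, adjusted p = 0.102).

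Of 16 genes of selenoprotein synthesis and relatives of GPX4, GPX2 and EEFSEC were called, both lower (12.5%, beside 18.2% of all genes), while 9 of the 16 had a positive log2FC and the median was 0.07. GPX2, a glutathione peroxidase of epithelia, had a log2FC of -0.46 (adjusted p = 0.0232) and EEFSEC, the elongation factor for selenocysteine, had -0.22 (adjusted p = 0.0271, both edgeR). With all libraries kept, the call was lost in 4 of 13 alternative fits for GPX2 and in 6 for EEFSEC. Their adjusted p reached 0.0885 and 0.258, both in limma on log2(FPKM + 1) without a filter. Both calls were also lost when single libraries were left out. GPX2 had an adjusted p of 0.0524 without I/R+DMSO replicate 2, 0.0505 without I/R+Rk2 replicate 1, 0.0524 without I/R+Rk2 replicate 2 and 0.0613 without I/R+Rk2 replicate 4. EEFSEC had 0.0547 without I/R+DMSO replicate 2, 0.0637 without I/R+DMSO replicate 3, 0.0652 without I/R+Rk2 replicate 1, 0.0608 without I/R+Rk2 replicate 3 and 0.0692 without I/R+Rk2 replicate 4. Of 26 tested genes other than ACSL4 that promote ferroptosis or feed it, 9 were higher and 1 lower, 38.5% beside 18.2% of all genes, with a median log2FC of 0.16. CHAC1, which degrades glutathione, rose from 9.83 ± 1.32 to 33.0 ± 3.15 CPM (SD, n = 4 per group), a log2FC of 1.75 (standard error 0.113, adjusted p = 1.1e-04 from edgeR). SLC38A1, a glutamine transporter, rose by 0.59 on the log2 scale (adjusted p = 6.2e-04), and BACH1, a heme-regulated repressor of HMOX1 and of ferritin genes, by 0.64 (adjusted p = 0.00480, both edgeR). All 3 passed in every alternative fit and in every fit without a library, with SLC38A1 between 0.36 and 0.62 in the former. The one called lower was SAT1, of polyamine breakdown, at -0.26 (adjusted p = 0.0243 from edgeR, named after its value was seen). Its adjusted p was 0.0583 without I/R+Rk2 replicate 2, 0.0619 without replicate 3 and 0.0637 without replicate 4.

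**Figure D4:**
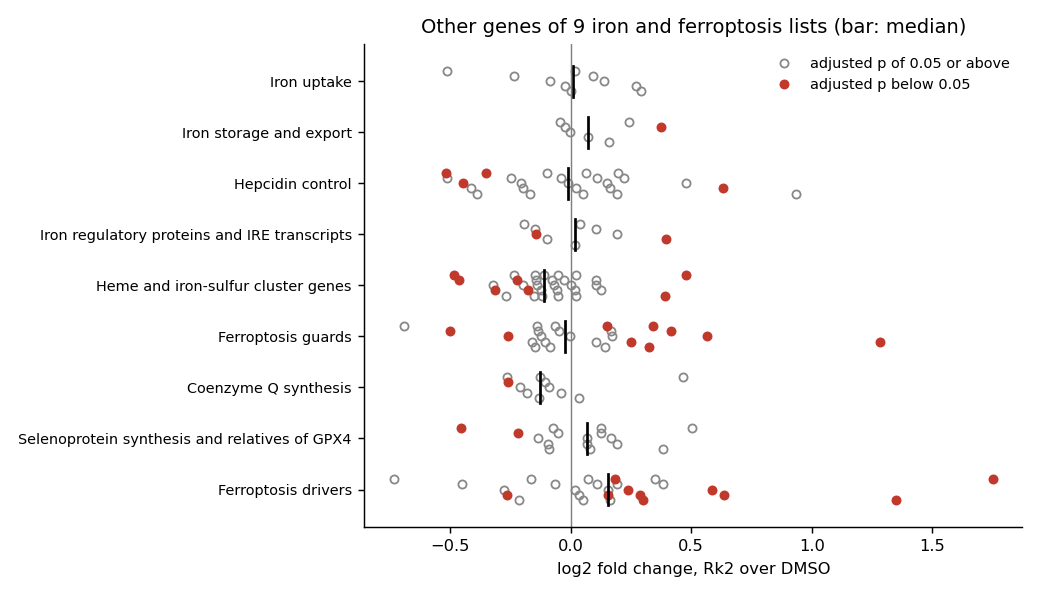
Log2FC (Rk2 over DMSO) of the tested genes of the 9 lists without the 10 genes, with filled points for genes called by edgeR, open points for the rest, and a bar at each list's median. SLC7A11 and CHAC1 are the points farthest to the right in the guards and the drivers.

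For SLC39A14 and ACSL4, the members with the smallest p-values, the tested genes with the most similar log2 CPM over the 8 libraries were looked up. They were MLEC, GPR37 and MEX3C for SLC39A14, with Pearson's r of 0.999, 0.996 and 0.996, and MAP3K2, ZDHHC17 and SMARCA1 for ACSL4, with 0.997, 0.996 and 0.994. The 8 points share the group difference and the spread of each library, and with 12928 genes to choose from such values are a description.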

How the data were processed

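RNA-seq was measured in 8 libraries of HuH7 cells, 4 of I/R+DMSO and 4 of I/R+Rk2, grouped by their deposited labels. The authors deposited raw counts per gene, without normalization, and FPKM values, normalized by them for gene length and library size (19799 genes). The submitters' processing notes name FastQC 0.11.5, HISAT2 2.2.1, StringTie 1.3.3 and hg38. The annotation, the counting tool and its use of strand are not given in the sources used here. The counts on 22 symbols turned into dates (0.111% of the total) were not assigned to genes.

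A minimum of 10 counts in 4 libraries was set, counts were TMM-normalized, and edgeR 4.0.16 (R 4.3.3) fitted a robust quasi-likelihood model with the treatment alone, called at 0.05 after Benjamini-Hochberg adjustment. Alternatives were DESeq2 1.42.0, upper-quartile scaling, library size only, no filter, a minimum of 50 counts throughout, voom with weights (limma 3.58.1), limma on log2(FPKM + 1) with and without a minimum mean FPKM of 0.5 or with 0.1 as pseudocount, a replicate block, a loess correction (span 0.5) for gene length derived from counts and FPKM, and leaving out each library. A GC correction was added after seeing the data. The steps were tested on simulated data with 200 changed genes. The main fit found 38 of 100 changes of 1.5-fold and 79 of 100 of 2-fold, with 11 false calls. Data without a change gave 0 calls, and changes below 1.5-fold were not simulated. Intervals are 95%. Named genes are the 10 members, up to 3 other genes per list with the smallest adjusted p below 0.05, and the 3 genes most like each of 2 members. A further 8 pathway genes (BMP6, ALAD, FDX2, FDXR, SPR, GCH1, DHODH and SAT1) were named after their values were seen. BMP2, which was not called, was named beside BMP6 in the same way. The members and lists were chosen with earlier results of these data known. Permutation tests were exact and two-sided. The values of 1 listed gene are not reported here.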

Additional observations from a re-analysis of the deposited data

Results flagged for a closer look

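With 22 groups of 4 libraries examined, 3 had a library whose gap to the nearest of the others exceeded Dixon's 95% critical value, where chance gives about 1 in 20. TFRC was at 1073 CPM in I/R+Rk2 replicate 4, beside 1003 to 1014 in the other 3 (ratio 0.844). AIFM2 was at 102 CPM in I/R+DMSO replicate 1, beside 92.1 to 92.7 (ratio 0.934). The share of all counts on FTH1 and FTL was 0.850% in I/R+DMSO replicate 1, beside 0.730% to 0.747% (ratio 0.861). The results for AIFM2, FTH1 and FTL without I/R+DMSO replicate 1 stand in the report. Without I/R+Rk2 replicate 4 the log2 fold change of TFRC was 0.092 (adjusted p = 0.372 from edgeR).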

How the results depend on the processing

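SLC39A14 and ACSL4 kept their direction and stayed past the threshold under all 13 alternative fits and all 8 fits without a library, with log2 fold changes between 0.23 and 0.41 for SLC39A14 and between 0.24 and 0.63 for ACSL4. SLC40A1 lost its call in the 3 limma fits on FPKM and without I/R+Rk2 replicate 2. The number of the 10 genes called was 3 or 2 throughout. The number of all genes called was 2351 (1416 higher, 935 lower, 60.2% higher). It was larger with DESeq2 (2986), voom with weights (2725), upper-quartile scaling (2546) and a minimum of 50 counts throughout (2454). It was 1121 and 1106 in limma on log2(FPKM + 1) and log2(FPKM + 0.1), and 971 on log2(FPKM + 1) without a filter. With the gene length correction and replicate block it was 1505. Without single libraries it was 1291 to 2282 (1461, 1512 and 1291 without I/R+Rk2 replicates 2, 3 and 4). The share called higher was 48.9% with upper-quartile scaling, 70.6% with library size only, 72.4% in limma on log2(FPKM + 1), 45.3% after the gene length correction and 46.7% after the GC correction. Of the other pathway genes, 21 were called higher, 25 in DESeq2, 11 in limma on log2(FPKM + 1) without a filter, and 15 to 22 without single libraries. Called lower were 15, 23 with upper-quartile scaling, 3 in limma on log2(FPKM + 1) and on log2(FPKM + 0.1), 4 on log2(FPKM + 1) without a filter, and 5 to 13 without single libraries (7 without I/R+DMSO replicate 2, and 8, 7, 6 and 5 without I/R+Rk2 replicates 1 to 4). The cause of these shifts was not tested.

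Directions turned in genes that did not pass the test in any fit. With the gene length correction the log2 fold change was -0.026 for TFRC, 0.030 for FTH1, 0.030 for FTL, -0.0035 for NCOA4 and 0.019 for GPX4. With that correction and the replicate block it was -0.026, 0.030, 0.029, -0.0030 and 0.020 in the same order. After the GC correction it was -0.0074 for TFRC and 0.0038 for AIFM2. AIFM2 was also at 0.0055 with library size only, 0.013 in limma on log2(FPKM + 1) with and without the filter, 0.014 on log2(FPKM + 0.1), and between -0.045 and 0.0087 without single libraries. Of the 26 named pathway genes with a call, other than the 10, 9 kept it under all alternatives. Of the 8 among them named after their values were seen, 0 did.

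Same-numbered libraries of the groups did not deviate together (correlations of -0.0094 to 0.0845), 1 of the 4 I/R+DMSO libraries correlated best with its own number, and the number was not treated as a pairing. With it as a replicate block, 1814 genes were called, the same 3 of the 10 among them, and 7 other pathway genes were called lower (7 also with the gene length correction). Depth limits HAMP, at 4 to 17 counts, which was under the minimum in 3 of the 13 fits and in 4 of the 8 without a library.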
